A study of Mus musculus with 10 samples.

Results

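The genes described here mark the epicardium, the outer cell layer of the heart, and the mesothelium, the related lining of the chest cavity and its organs. The set was fixed by name and holds 10 genes (Wt1, Tbx18, Bnc1, Upk1b, Upk3b, Krt8, Krt19, Msln, Lrrn4 and Aldh1a2) of the 17575 that appear in at least 1 of the 3 deposited tables. All 10 were listed, with a p, in each table. RNA was sequenced from hearts of male mice at 1 week of age, from 3 WT, 3 Ft1ko and 4 Ft1sm22ko animals. The gene symbol of Ft1 in mice is Aktip, and its protein is known for a role at chromosome ends. Ft1ko mice came from floxed Ft1 (Ft1F) animals crossed with the general deleter CMV-cre and lacked Ft1 in the whole body. Ft1sm22ko mice came from Ft1F animals crossed with sm22-cre, whose promoter is that of Tagln, a gene of smooth muscle cells, and their hearts still held sm22-negative cells with intact Ft1. The question asked of both models was how a diffuse loss of Ft1 and a loss aimed at the vasculature change the cardiac transcriptome.

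The epicardium is a single sheet of mesothelial cells that covers the myocardium. In the embryo some of its cells undergo an epithelial to mesenchymal transition, enter the heart wall and give rise to fibroblasts and mural cells. The sheet also secretes retinoic acid and growth factors that act on the muscle below. WT1 and TBX18 are transcription factors of the embryonic epicardium, and BNC1 (basonuclin) is a zinc finger protein of mesothelial and other epithelial cells. UPK1B and UPK3B are uroplakins, membrane proteins best known from the bladder lining and also made by mesothelium. KRT8 and KRT19 are keratins of simple epithelia, a class that includes mesothelium and also the lining of lung airways and alveoli. MSLN (mesothelin) is a glycoprotein anchored in the mesothelial cell surface, LRRN4 is a leucine-rich repeat membrane protein, and ALDH1A2 is the main enzyme of retinoic acid synthesis in the embryo.

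For each pair of groups the deposited tables listed 1 line per gene, with a mean of normalized counts over all hearts of the pair, a log2 fold change, the SE of that change, a Wald statistic and a p. Values of single hearts were not analysed here, so whether individual hearts overlap between groups could not be read. Group means were worked out from the mean and the fold change, in normalized counts on the scale of the table of Ft1ko against WT, and are levels without an error of their own. Positive fold changes mean a higher level in the mutant than in WT, and in the direct comparison of mutants a higher level in Ft1sm22ko. Adjusted p are those of the Wald test in the authors' model, adjusted over all genes of a table by Benjamini-Hochberg, and a gene was called when its adjusted p was under 0.05. Library depths are unknown. The targeted gene was read first. Aktip stood at 664 in WT, 175 in Ft1ko and 287 in Ft1sm22ko hearts, and its log2 fold change was -1.93 in Ft1ko (SE 0.27, adjusted p = 5.08e-11) and -1.21 in Ft1sm22ko (SE 0.27, adjusted p = 0.000107). A count over the whole gene also takes reads from outside the deleted stretch.

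Promoter sequences are shown for 3 genes that were higher in both mutants (Krt8, Upk3b and Lrrn4) and for Tbx18, which was called in neither, so that members with different responses can be read side by side. RefSeq entries (build GRCm38.p6) matched 6 of the 10 members, and Wt1, Upk1b, Msln and Krt19 had none. Each run gives the 250 bases before the transcription start, 5′ to 3′ on the strand of the gene. Krt8 lies at chr15:102004343-102004592 (minus strand), Upk3b at chr5:136038246-136038495 (plus strand), Lrrn4 at chr2:132880863-132881112 (minus strand) and Tbx18 at chr9:87731261-87731510 (minus strand). Capitals mark matches, on either strand, to short motifs of factors known from the epicardium or from epithelial promoters.
Krt8: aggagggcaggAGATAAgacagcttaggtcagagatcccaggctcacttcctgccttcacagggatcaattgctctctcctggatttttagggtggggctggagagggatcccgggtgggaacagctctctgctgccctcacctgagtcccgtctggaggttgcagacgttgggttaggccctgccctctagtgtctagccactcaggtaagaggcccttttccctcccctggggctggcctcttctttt
Upk3b: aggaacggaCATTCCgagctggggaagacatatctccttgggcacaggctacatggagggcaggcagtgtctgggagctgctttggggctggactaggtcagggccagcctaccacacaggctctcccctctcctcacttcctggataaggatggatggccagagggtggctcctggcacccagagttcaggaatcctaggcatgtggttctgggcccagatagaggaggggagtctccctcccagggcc
Lrrn4: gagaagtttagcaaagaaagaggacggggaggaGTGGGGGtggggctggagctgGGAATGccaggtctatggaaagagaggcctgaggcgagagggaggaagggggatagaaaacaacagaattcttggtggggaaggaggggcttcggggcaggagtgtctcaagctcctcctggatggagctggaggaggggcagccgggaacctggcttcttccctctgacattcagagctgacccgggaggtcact
Tbx18: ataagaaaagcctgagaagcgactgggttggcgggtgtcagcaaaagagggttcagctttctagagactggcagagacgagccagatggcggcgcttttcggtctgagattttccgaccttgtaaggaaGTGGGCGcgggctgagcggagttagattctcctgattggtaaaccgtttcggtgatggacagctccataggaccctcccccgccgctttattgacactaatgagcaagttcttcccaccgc
The motif of the TEAD factors, partners of the Hippo pathway, was searched as GGAATG. The motif of the GATA family of zinc finger factors was searched as AGATAA. For the core shared by WT1 and the EGR proteins the letters were GTGGGNG. The GC box read by factors of the SP and KLF families was searched as GGGCGG. For AP-1, the dimer of Fos and Jun proteins, the letters were TGANTCA. The last motif, the TATA box of core promoters, was searched as TATAAA. The capitals are a GATA match in Krt8 from base -239 to -234, a TEAD match in Upk3b from -241 to -236 on the opposite strand, a WT1 and EGR match (-217 to -211) and a TEAD match (-196 to -191) in Lrrn4, and a WT1 and EGR match in Tbx18 from -121 to -115. Among the 6 members with an entry, TEAD was matched in 2, GATA in 1 and the WT1 and EGR core in 3 (Bnc1, Lrrn4 and Tbx18). SP and KLF letters were matched in 1 (Bnc1), and AP-1 and TATA in 0. Bnc1 held several SP and KLF matches, of which only that from -47 to -42 overlaps its WT1 and EGR match from -46 to -40. Of 32851 mouse promoters of the same length, 12.6% held TEAD, 9.99% GATA, 28.1% the WT1 and EGR core, 32.7% SP and KLF, 6.75% AP-1 and 12.4% TATA letters. A match describes the letters only, and no match says only that these letters are not in the window.

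In both mutants 8 of the 10 genes were higher than in WT, by 2.45- to 49.2-fold in Ft1ko and by 3.76- to 18.8-fold in Ft1sm22ko. The exceptions were Wt1 and Tbx18, which were called in neither. Among all genes tested, 19.7% were called higher and 16.1% lower in Ft1ko, and 16.2% higher and 16.0% lower in Ft1sm22ko. The summed level of the 10 genes was 999 in WT, 5460 in Ft1ko and 5289 in Ft1sm22ko hearts. Bulk RNA of a whole heart cannot tell more cells of a type from more RNA per cell. Both comparisons used the same 3 WT hearts, so they are not independent of each other.

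**Figure D1:**
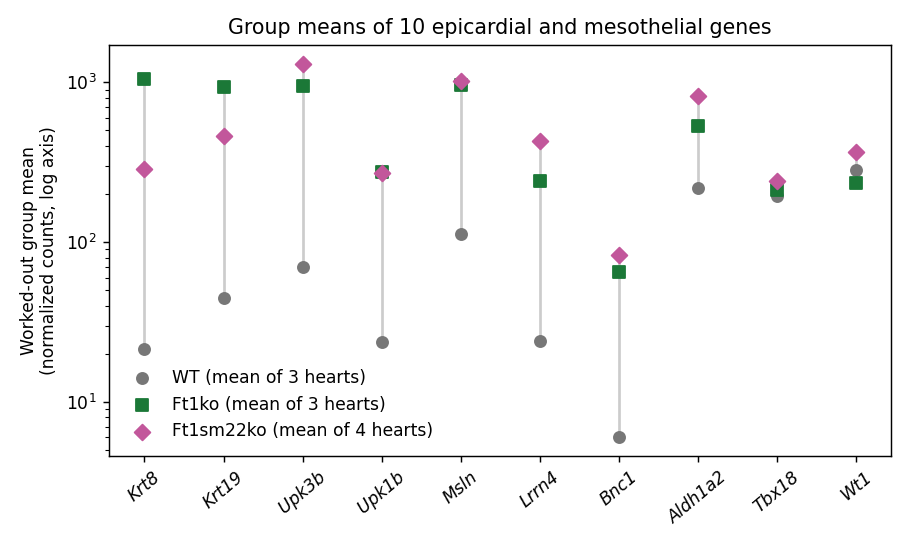
Group means of the 10 genes, in normalized counts on a log axis, worked out from the deposited means and fold changes for WT (grey circles), Ft1ko (green squares) and Ft1sm22ko (pink diamonds) hearts. The points have no error because no values per heart were analysed. The 3 symbols lie close together for Wt1 (235 to 364) and Tbx18 (194 to 240), while WT lies lowest for the other 8 genes.

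Of the 3 transcription factors, only Bnc1 was called. Wt1, which drives the epithelial to mesenchymal transition of the epicardium, had group means of 284 in WT, 235 in Ft1ko and 364 in Ft1sm22ko. The WT level thus lay between those of the mutants. Its log2 fold change was -0.27 in Ft1ko (SE 0.42, 95% confidence interval -1.09 to 0.55, adjusted p = 0.65) and 0.36 in Ft1sm22ko (SE 0.34, interval -0.31 to 1.02, adjusted p = 0.451). Tbx18, a T-box factor of the epicardium and of the sinus node region, stood at 194, 212 and 240 in the same order. Its log2 fold change was 0.13 in Ft1ko (SE 0.47, interval -0.80 to 1.05, adjusted p = 0.86) and 0.30 in Ft1sm22ko (SE 0.38, interval -0.44 to 1.04, adjusted p = 0.582). For both genes the upper limit of the interval was at most 1.05, below the lower limit of every uroplakin, keratin, mesothelin, Lrrn4 and Bnc1 value in the same comparison. A change of up to 2.08-fold for Tbx18 in Ft1ko lay within its interval. Bnc1 stood at 6.03 in WT, 65.1 in Ft1ko and 82.6 in Ft1sm22ko. It rose 10.8-fold in Ft1ko (interval 4.67 to 24.9, adjusted p = 5.69e-07) and 13.7-fold in Ft1sm22ko (interval 5.76 to 32.5, adjusted p = 1.00e-07).

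Both uroplakins rose in both models. Upk1b stood at 23.8 in WT, 273 in Ft1ko and 271 in Ft1sm22ko, which gave log2 fold changes of 3.52 (SE 0.46, adjusted p = 1.44e-12) and 3.51 (SE 0.50, adjusted p = 1.35e-10). Upk3b went from 70.1 in WT to 945 in Ft1ko and 1310 in Ft1sm22ko. Its log2 fold changes were 3.75 (SE 0.36, adjusted p = 5.71e-23) and 4.23 (SE 0.42, adjusted p = 8.74e-21). Upk3b held rank 131 of 16661 genes by fold change in Ft1sm22ko, the highest place of any member there. Other uroplakins of the bladder lining were not called higher against WT where they were listed, and Upk3a was not listed for Ft1sm22ko against WT. Upk1a stood at 31.0 in WT and 9.05 in Ft1sm22ko, where it fell by 1.78 on the log2 scale (SE 0.63, adjusted p = 0.0197). Upk2 was at 0.573 in WT and 3.62 in Ft1ko, with a log2 fold change of 2.66 (SE 1.81, adjusted p = 0.256), and Upk3a was at 1.44 and 11.1, with 2.95 (SE 1.66, adjusted p = 0.157).

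The keratins had the largest rises in Ft1ko and the widest gap between the models. Krt8 stood at 21.4 in WT, 1052 in Ft1ko and 289 in Ft1sm22ko. It rose 49.2-fold in Ft1ko (interval 24.1 to 100.3, adjusted p = 5.26e-24), rank 258 of 16748 genes, and 13.5-fold in Ft1sm22ko (interval 5.50 to 33.4, adjusted p = 3.99e-07), rank 237 of 16661. Krt19 stood at 44.6, 936 and 463 in the same order. It rose 21.0-fold in Ft1ko (interval 13.0 to 33.9, adjusted p = 2.74e-32) and 10.1-fold in Ft1sm22ko (interval 4.54 to 22.5, adjusted p = 3.87e-07). The ratio of Krt8 to Krt19 levels was 0.479 in WT, 1.12 in Ft1ko and 0.624 in Ft1sm22ko. Solved from the means of the pairs alone, without fold changes, WT levels were 5.30 for Krt8 and 28.1 for Krt19. The WT ratio therefore depends on the method.

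The surface proteins of the set rose in both models. Msln, the gene of mesothelin, stood at 112 in WT, 966 in Ft1ko and 1018 in Ft1sm22ko. Its log2 fold changes were 3.11 (SE 0.35, adjusted p = 3.05e-16) and 3.19 (SE 0.46, adjusted p = 3.16e-10). Lrrn4 stood at 24.2 in WT, 240 in Ft1ko and 432 in Ft1sm22ko, with log2 fold changes of 3.31 (SE 0.56, adjusted p = 1.01e-07) and 4.15 (SE 0.55, adjusted p = 5.54e-12).

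Aldh1a2, the retinoic acid enzyme, had the smallest of the called rises in both models. It stood at 219 in WT, 536 in Ft1ko and 819 in Ft1sm22ko. The fold change was 2.45 in Ft1ko (interval 1.28 to 4.68, adjusted p = 0.0227) and 3.76 in Ft1sm22ko (interval 2.36 to 6.0, adjusted p = 7.06e-07). With Bonferroni adjustment, where 4.94% of all genes were called higher in Ft1ko and 3.87% in Ft1sm22ko, Aldh1a2 was not called in Ft1ko (adjusted p = 1) and the other 7 were. In Ft1sm22ko all 8 stayed called under that rule.

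**Figure D2:**
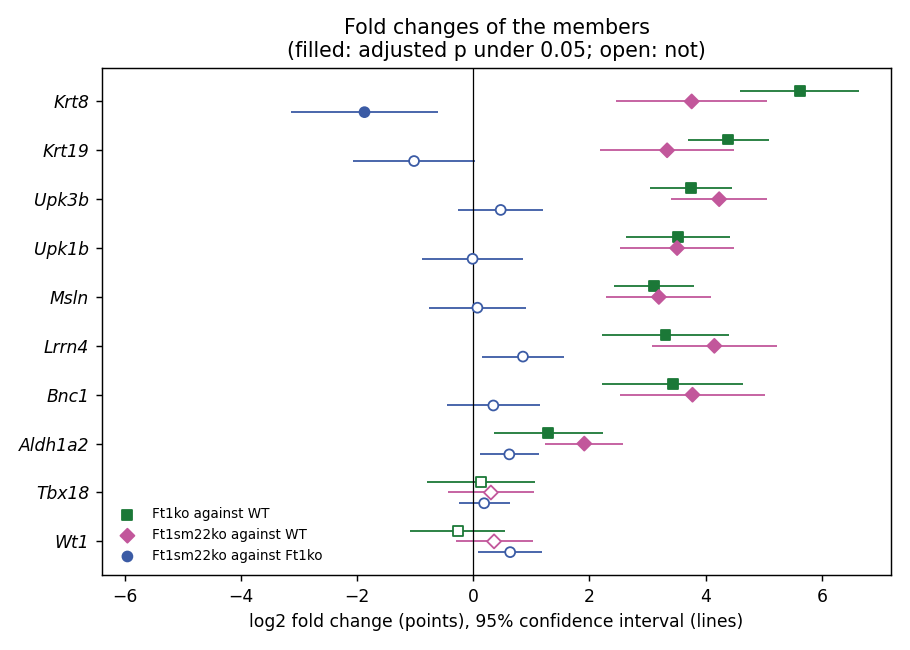
log2 fold changes of the 10 genes with 95% confidence intervals for Ft1ko against WT (green squares), Ft1sm22ko against WT (pink diamonds) and Ft1sm22ko against Ft1ko (blue circles), where filled symbols have an adjusted p under 0.05. Intervals of 8 genes lie to the right of 0 in both mutants, those of Wt1 and Tbx18 cross 0, and Krt8 is the only filled symbol of the direct comparison.

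Across the 10 genes the median log2 fold change was 3.37 in Ft1ko and 3.42 in Ft1sm22ko, beside medians over all genes tested of 0.13 and 0.06. The 7 members other than Wt1, Tbx18 and Aldh1a2 lay between 3.11 and 5.62 in Ft1ko and between 3.19 and 4.23 in Ft1sm22ko, a narrower range in the latter. Because the called genes rose and Wt1 and Tbx18 did not pass the test, the makeup of the summed level differed between groups. Wt1 and Tbx18 together gave 47.9% of the sum in WT, 8.20% in Ft1ko and 11.4% in Ft1sm22ko. The level of Wt1 per level of Msln was 2.53 in WT, 0.244 in Ft1ko and 0.358 in Ft1sm22ko. Solved from the means of the pairs alone, WT levels were 273 for Wt1 and 78.1 for Msln. The WT share and ratio therefore depend on the method. Divided by exon length, the order of levels in WT began with Aldh1a2 (96.6 normalized counts per kilobase), Wt1 (45.8) and Tbx18 (41.2). In Ft1ko it began with Krt8 (537), Krt19 (505) and Msln (315), and in Ft1sm22ko with Upk3b (371), Aldh1a2 (362) and Msln (332). Bnc1 was lowest per kilobase in each group, at 1.30, 14.0 and 17.8. Neighbours in these orders were not tested against each other.

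**Figure D3:**
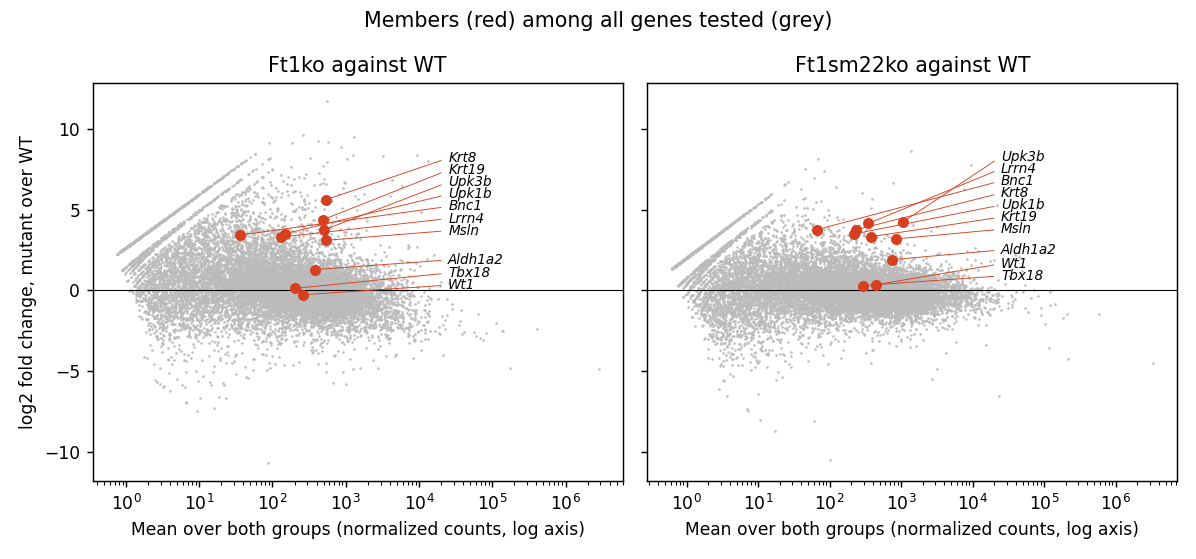
Mean over both groups (normalized counts, log axis) against log2 fold change for all genes tested (grey) and the 10 members (red, labelled) in Ft1ko against WT (left) and Ft1sm22ko against WT (right). Of the 10 members, 8 sit at 1.29 or more in both panels, while Wt1 and Tbx18 sit near 0, inside the bulk of the grey points.

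The mutants were also compared with each other. Their Cre lines differ, and so do the lung and thymocyte marker levels given below. A difference between the mutants therefore cannot be tied to how widely Ft1 was lost. Krt8 alone was called, and lower in Ft1sm22ko than in Ft1ko by a log2 fold change of -1.87 (SE 0.64, interval -3.14 to -0.61, adjusted p = 0.0237). In this comparison 9.00% of all genes were called lower and 10.8% higher, so 1 of 10 members called lower is near the background. Under Bonferroni, where 0.926% of genes were called lower, the count was 0. No member was called higher in the authors' model, though 3 had an unadjusted p under 0.05 in that direction. These were Lrrn4 with 0.85 (SE 0.36, adjusted p = 0.0781), Wt1 with 0.63 (SE 0.28, adjusted p = 0.0937) and Aldh1a2 with 0.62 (SE 0.26, adjusted p = 0.0752). Krt19 had -1.02 (SE 0.54, interval -2.08 to 0.04, adjusted p = 0.174). The nearest to 0 were Upk1b with -0.01 (interval -0.88 to 0.86) and Msln with 0.07 (interval -0.77 to 0.91), intervals that leave room for differences of up to 1.88-fold in Msln. The median of the 10 was 0.26 beside -0.05 over all genes tested.

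Further genes of the mesothelium were read beside the members. This list and those that follow were chosen with earlier results of these data known, so they give no independent support. Among all genes tested, 19.7% were called higher in Ft1ko and 16.2% in Ft1sm22ko. Of 14 other mesothelial genes 13 were listed (Muc16 was not). In Ft1ko 12 rose and 1 was not called (median 3.17 on the log2 scale), and in Ft1sm22ko 11 rose and 2 were not called (median 3.34). The calls with the smallest p in Ft1ko were Krt7, a keratin of simple epithelia (5.53, SE 0.55), Anxa8, an annexin (4.61, SE 0.51), Gpm6a, a membrane glycoprotein (2.72, SE 0.30), and Krt18, the filament partner of Krt8 (4.38, SE 0.56). In Ft1sm22ko they were Gpm6a (3.34, SE 0.40), Ildr2 (3.39, SE 0.46), Krt7 (4.06, SE 0.55) and Dmkn (3.92, SE 0.71). In the direct comparison 3 of the 13 were lower and 10 were not called. The lower genes were Krt18 at -1.71 (SE 0.53), Krt7 at -1.49 (SE 0.51) and the mucin Muc1 at -3.69 (SE 1.39). Lung epithelium also makes these keratins and this mucin.

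Regulators of the epicardium other than Wt1 and Tbx18 were read from a further list. Of its 11 genes 7 rose and 4 were not called in each mutant, with median log2 fold changes of 1.20 in Ft1ko and 0.77 in Ft1sm22ko. In Ft1ko the smallest p was that of Tbx5, also a gene of atrial muscle, which rose by 1.67 (SE 0.24) and in Ft1sm22ko by 0.77 (SE 0.26). Sema3d, a guidance cue of epicardial cells, rose by 2.14 (SE 0.33) and 2.86 (SE 0.35). Tbx20, a T-box factor shared with heart muscle, rose by 1.20 (SE 0.28) and 1.65 (SE 0.26). Gata5, a zinc finger factor of epicardium and endocardium, rose by 5.38 in Ft1ko (SE 0.91) from a WT level of 3.63, and by 3.94 in Ft1sm22ko (SE 0.67). Tcf21, a factor of epicardial cells fated to become fibroblasts, rose by 1.97 in Ft1sm22ko (SE 0.31). In the direct comparison 2 of the 11 were higher in Ft1sm22ko and 3 lower. The smallest p was again that of Tbx5, at -0.90 (SE 0.25, adjusted p = 0.00487), and the largest fall that of Gata5 at -1.43 (SE 0.53, adjusted p = 0.0382).

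Genes of the fibroblasts that descend from the epicardium rose as well, 8 of 10 in Ft1ko (median 1.85) and 10 of 10 in Ft1sm22ko (median 1.92), and the 2 others in Ft1ko were not called. Postn, a matrix protein of activated fibroblasts, had the smallest p in both comparisons and rose by 2.62 (SE 0.25) and 2.65 (SE 0.25). Tnc, a matrix protein of remodelling tissue, rose by 4.47 in Ft1ko (SE 0.50). Col1a2, a chain of type I collagen, rose by 1.93 (SE 0.24) and 1.83 (SE 0.21). In the direct comparison 2 were higher and 1 lower, the latter Tnc at -2.10 (SE 0.44).

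Genes of the retinoic acid pathway around Aldh1a2 were called in both directions, as were genes of the whole table. Of 22 further genes 21 were listed, and 7 rose and 4 fell in Ft1ko (median 0.16), while 7 rose and 3 fell in Ft1sm22ko (median 0.04). Among all genes tested, 19.7% were called higher and 16.1% lower in Ft1ko (median 0.13). In Ft1sm22ko the shares were 16.2% and 16.0% (median 0.06), so the falls in the pathway were near the background. Aldh1a1, the sister enzyme, rose by 3.84 in Ft1ko (SE 0.26, adjusted p = 4.69e-44) and stood at 2.43 in Ft1sm22ko (SE 1.03, adjusted p = 0.0565). Rxrg, a retinoid X receptor of striated muscle, fell by 3.69 (SE 0.33) and by 1.49 (SE 0.39). Rdh5, a retinol dehydrogenase, fell by 3.18 (SE 0.38) and by 2.37 (SE 0.39). Dhrs3, which turns retinal back to retinol, fell by 1.38 (SE 0.27) and by 1.29 (SE 0.32). Hic1, a repressor expressed in mesenchyme, rose by 1.40 in Ft1sm22ko (SE 0.23). Hic1 is counted among the 7 rises of each mutant, though it is not a retinoid enzyme, carrier or receptor.

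Markers of other tissues were read beside these results. In Ft1ko 10 of 10 markers of lung epithelium rose (median 8.0 on the log2 scale), and their summed level was 473 in WT and 50474 in Ft1ko. The 11 thymocyte markers had no p there, which the authors' tool withholds when 1 library has an extreme count, and their summed level was 100 in WT and 6108 in Ft1ko. In Ft1sm22ko 2 of the 10 lung markers had a p, of which Aqp5 rose by 5.38 (SE 1.57) and Napsa fell by 1.47 (SE 0.49). The summed lung level was 482 in WT and 2896 in Ft1sm22ko, and that of 10 listed thymocyte markers was 101 and 134. In the direct comparison 5 of 10 lung markers were lower in Ft1sm22ko (median -5.71), in the same direction as Krt8, Krt7, Krt18 and Muc1, and their part in those differences was not tested. Lung surfactant gene Sftpd was at 0.319 in WT and 1094 in Ft1ko. Mesothelium also covers the lung and the pericardial sac, and the part of these surfaces in the rise of the members was not tested.

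Atrial muscle markers rose in both models, 8 of 8 in Ft1ko (median 5.68) and 7 of 8 in Ft1sm22ko (median 5.78). Their summed level was 1963 in WT, 55952 in Ft1ko and 54777 in Ft1sm22ko. Myl7, the atrial myosin light chain, rose by 8.40 (SE 0.46) and 7.77 (SE 0.47). Of 9 ventricular markers 4 fell and 5 were not called in Ft1ko (median -2.34), and of the 8 with a p in Ft1sm22ko 3 fell and 5 were not called (median -0.33). Endothelial markers had medians near 0, at -0.14 in Ft1ko (3 of 10 fell and 7 were not called) and 0.25 in Ft1sm22ko (2 rose and 3 fell). How the parts of the heart in each sample differed was not tested as a source of the members' rise. Urothelial markers were low, with summed levels of 47.3 in WT and 155.5 in Ft1ko for 6 genes. Of 5 listed markers of kidney podocytes and gonad, where Wt1 is also active, 0 were called in Ft1ko in the authors' model, and 1 had an unadjusted p under 0.05 (Podxl, -0.86, SE 0.43). Of 6 listed in Ft1sm22ko, Gata4, also a gene of heart muscle, rose by 0.71 (SE 0.22), Podxl, also a gene of endothelium, was lower at -0.38 (SE 0.15), and 4 were not called.

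**Figure D4:**
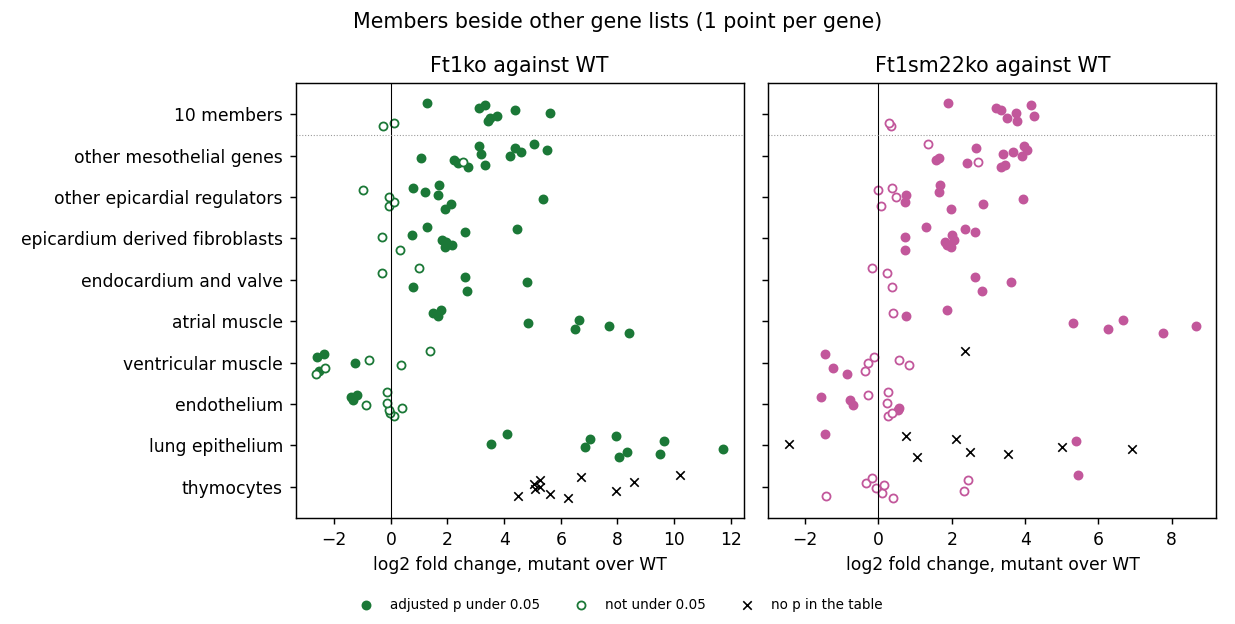
log2 fold changes of single genes in the 10 members and in 9 other lists, for Ft1ko against WT (left, green) and Ft1sm22ko against WT (right, pink), with filled points for an adjusted p under 0.05, open points for the rest and crosses for genes without a p. The 8 called members overlap in range with other mesothelial genes, lung epithelium extends further to the right in Ft1ko, and ventricular muscle extends to the left.

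The standard errors carry a spread between hearts that the authors' model fitted, shared by both groups of a pair. It is a model value and not a spread observed in the hearts of each group. Under the authors' type of model (negative binomial, size factors taken as 1) the implied coefficient of variation of the members was 28.0 to 45.2% in Ft1ko against WT and 30.3 to 58.5% in Ft1sm22ko against WT. The median of genes with a mean of at least 100 was 28.0% and 22.3%. The keratins had the widest implied spread in Ft1sm22ko against WT, 58.5% for Krt8 and 52.5% for Krt19, where Wt1 (30.3%) and Aldh1a2 (30.8%) had the narrowest. Lung epithelium markers lay apart from the members in Ft1ko, at 74.8 to 238% with a median of 165%, while atrial markers lay at 19.6 to 41.1%. In that comparison all 10 members lay below all 10 lung markers. Other mesothelial genes spanned 23.5 to 163% there, with a median of 38.3%, so their range overlapped that of lung. The 163% was that of Calb2, at a level of 0.273 in WT. Ciliated cell markers overlapped the members there, at 28.5 to 153% with a median of 59.7%. Whether spread separates the sources of these RNAs was not tested. In Ft1sm22ko against WT the ranges overlapped, with lung markers at 40.2 to 318% and atrial markers at 18.8 to 86.8%.

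**Figure D5:**
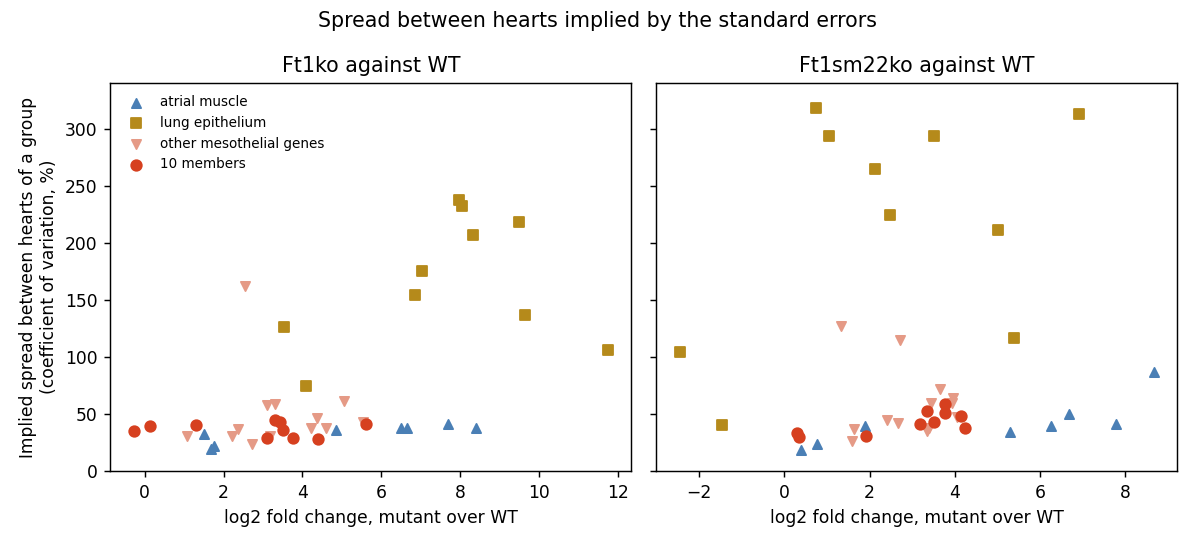
log2 fold change against the coefficient of variation between hearts of a group implied by the standard error, in percent, for the 10 members (red circles), other mesothelial genes (pale triangles pointing down), lung epithelium (brown squares) and atrial muscle (blue triangles), in Ft1ko (left) and Ft1sm22ko (right) against WT. In Ft1ko the members lie at 28.0 to 45.2%, below the lung markers at 74.8 to 238%.

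On the strand opposite to Aldh1a2, Bnc1, Krt8 and Tbx18 the annotation has an overlapping unlisted gene, none of which appears in the tables. The library kit keeps strand, while the counting setting is not given in the sources used here, so reads of such partners may be included in these 4 values.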

How the data were processed

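Hearts of 3 WT, 3 Ft1ko and 4 Ft1sm22ko mice were measured, grouped by the labels. The authors extracted total RNA with TRIzol, prepared stranded mRNA libraries, aligned paired reads with STAR to a reference named hg38, although the symbols are mouse ones, counted them with htseq-count and fitted DESeq2 to each pair of groups. Versions are not given in the sources used here. In the deposited tables a signal column holds the mean of normalized counts over the hearts of a pair. Deposited fold changes and standard errors are log2 values, the Wald statistic is a deposited score, and each deposited p-value is 2-sided. These are the authors' own comparison columns. They were used because no values per heart were analysed, signs were turned to mutant over WT, and the authors' adjusted p served only as an alternative.

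The p were adjusted again over the 16748, 16661 and 17169 genes that had one, by Benjamini-Hochberg at 0.05. Group means were solved from mean, fold change and number of hearts, and tables were set on 1 scale by the median ratio of 9773 genes (1.35 and 2.16). The depth of each library is unknown, so precision rests on the standard errors and the number of hearts. Labels do not say how animals were related, and the p take no account of it. The p rest on a spread between hearts fitted by the authors' model, not on one observed in each group. Scripts were tested on simulated data. The 10 genes and 19 other lists were chosen with earlier results of these data known, and lists share some genes. Text names all 10 genes, Aktip and at most 4 genes per list and comparison, by smallest p. Exceptions chosen after their values were seen are Upk2, Upk3a, Podxl and those of the closing part. Exon lengths are from GENCODE M21 and promoters from RefSeq. Tools were pandas 2.3.3, numpy 2.4.6 and scipy 1.17.1 under python 3.11.15, with figures by matplotlib 3.10.9.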

Additional observations from a re-analysis of the deposited data

Results flagged for a closer look

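Each of the following differed between the mutants in the direct comparison of Ft1sm22ko with Ft1ko (Wald test of the authors' model, Benjamini-Hochberg adjusted p under 0.05), given as log2 fold change. Among the members it was Krt8 at -1.87. Among other mesothelial genes it was Krt18 at -1.71, Krt7 at -1.49 and Muc1 at -3.69, and lung epithelium markers were lower as well, with a median of -5.71. Their part was not tested.

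Among epicardial regulators Gata5 (-1.43), Tbx5 (-0.90) and Nfatc1 (-0.43) were lower in Ft1sm22ko, while Hand2 (0.97) and Gata6 (0.55) were higher. In the retinoic acid pathway Crabp1, a retinoic acid binding protein, was lower at -4.05 and the receptor Rara at -0.68, while the receptors Rarb (0.58) and Rxrg (2.20) were higher. Among the nearest paralogs of the members Upk3a was lower at -4.29 (SE 1.43) and Lrrn3 at -2.26 (SE 0.75). Upk3a stood at 11.3 in Ft1ko and 0.577 in Ft1sm22ko, and Crabp1 at 24.5 and 1.48 (SE of its fold change 1.03). Both lie near the floor in Ft1sm22ko, so the size of their differences is uncertain.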

How the results depend on the processing

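Over 178 alternatives for single members, leaving out a Student t reference, 173 kept direction and call, 2 lost the call, 1 gained it and 2 changed sign without being called. Only centring altered the fold change. The other settings reused the same fold change and Wald statistic, so direction could not change there and its stability is no separate support. The sign changes came with centring on the median of all genes, for Tbx18 in Ft1ko (-0.0013) and Upk1b in the direct comparison (0.037). Centring also raised the members called in the direct comparison from 1 to 2, as Aldh1a2 joined. That count was 0 with Bonferroni and 0 without Krt8 and Krt19. A Student t reference with 4 or 5 degrees of freedom called 0 members in each comparison and 0 genes of the whole table, so it says nothing about the members. The median log2 fold change of the members was 4.07 in Ft1ko and 4.12 in Ft1sm22ko when solved from the 3 mean columns alone, which also moved the median WT level from 57.4 to 29.6, and 2.87 and 2.33 as a mean weighted by the standard errors. No paired analysis was possible because the tables hold 1 value per gene and comparison and no value per heart. Fits that leave out a heart were not run for the same reason, so whether 1 heart decides a value is not known.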

Other observations

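Genes of the epithelial to mesenchymal transition were described with the members because epicardial cells use this programme. Of 12 genes 8 rose in Ft1ko (median log2 fold change 1.44) and 6 in Ft1sm22ko (median 0.76), and the others were not called. The list holds epithelial and mesenchymal genes together, so these counts give no direction of the transition. Fn1, the fibronectin gene, rose by 2.80 (SE 0.27) and 2.46 (SE 0.31), and Vim, an intermediate filament gene of mesenchyme, by 1.25 in both (SE 0.32 and 0.23). Cdh1, the epithelial cadherin, rose by 6.57 in Ft1ko (SE 0.65) from a level of 11.3 to 1069. It was not called in Ft1sm22ko (2.89, SE 1.63, adjusted p = 0.166). Another cadherin, Cdh2, was not called in either mutant, at -0.71 in Ft1ko (SE 0.39) and 0.25 in Ft1sm22ko (SE 0.24). Of the mediators, Tgfb2 rose by 2.19 (SE 0.41) and 1.25 (SE 0.25), and was lower in Ft1sm22ko than in Ft1ko at -0.95 (SE 0.30).

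Of 15 listed paralogs of the members 8 rose in Ft1ko, and of 14 in Ft1sm22ko 6 rose and 1 fell. Lrrn2, a relative of Lrrn4, rose by 1.61 (SE 0.36) and 1.63 (SE 0.24), and Aldh1a3, another retinaldehyde dehydrogenase, by 2.26 in Ft1sm22ko (SE 0.39). Upk1a, the paralog of Upk1b, stood at 31.0 in WT and 9.05 in Ft1sm22ko and fell by 1.78 (SE 0.63).

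Markers of ciliated cells rose for 6 of 7 genes in Ft1ko, with a summed level of 79.4 in WT and 1577 in Ft1ko, and had no p in Ft1sm22ko, where the sum was 417. Of 9 fat cell genes 5 rose in Ft1ko and 3 in Ft1sm22ko, and of 8 smooth muscle genes 4 rose and 3 fell in Ft1ko and 2 rose and 2 fell in Ft1sm22ko, with Tagln, the gene of the sm22 promoter, up by 2.04 (SE 0.31) and 0.90 (SE 0.32). Of 6 genes of endocardium and valve 4 rose in Ft1ko and 3 in Ft1sm22ko, among them Npr3, a natriuretic peptide receptor, by 2.69 (SE 0.27) and 2.82 (SE 0.28). Of the thymic epithelium genes with a p, 2 of 3 rose in Ft1ko and 1 of 7 in Ft1sm22ko. For all counts of these closing observations, the shares over all genes tested were 19.7% higher and 16.1% lower in Ft1ko. In Ft1sm22ko they were 16.2% higher and 16.0% lower. The thymic epithelium and smooth muscle counts in Ft1sm22ko are near these shares.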
